A study of Mus musculus with 12 samples.

Results

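The comparison described here set 4 mice treated with Laminaria japonica polysaccharide (LJP) through ischemia and reperfusion against 4 mice that received saline in its place (Vehicle). Membership was fixed by the group labels alone: all LJP and all Vehicle mice entered, which is 8 of the 12 mice of the study, and the 4 sham-operated mice (Sham) are shown beside them as the uninjured reference. LJP is a polysaccharide extract of a brown seaweed. In the LJP and Vehicle mice the middle cerebral artery, which supplies the lateral striatum and cortex, was closed from inside with a thread for 45 min, by the methods, and then reopened so that blood returned (tMCAO). LJP was given by gavage once a day for 14 days before surgery and was continued afterwards, while Vehicle and Sham mice received saline. All 12 mice were labelled C57BL/6J and, by the methods, male, and their libraries carried the same batch label. After its dose comparison the study went on with its middle LJP dose, while neither the labels nor the sequencing methods name the dose or the time after reperfusion of the sequenced mice. Each library came from 1 mouse, from the ischemic hemisphere or, in Sham mice, its counterpart, so p-values measure the spread between mice.

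RNA was read as counts per gene, and levels are given as CPM, the count scaled to a common library size with TMM factors. Totals lay between 17960353 and 22216315 counts per mouse, so a count of 0 in an LJP library allows a level of up to 0.155 CPM on average (3 counts, counting error only). A total of 17558 of 39756 genes held enough counts to be tested. Vehicle mice 1 and 2 stood apart from the other 10 libraries: their quality weights in limma voom were 0.197 and 0.0937, against at least 1.01 for every other mouse. Over all genes tested, the median SD of log2 CPM was 0.306 between Vehicle mice, 0.155 between LJP mice and 0.120 between Sham mice. Medians of gene lists are therefore given with all mice and without Vehicle mice 1 and 2 together, and for the lists described their range over the omission of each of the 8 mice in turn is plotted.

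A blocked and reopened cerebral artery leaves dying neurons, and the injured tissue answers in layers. Microglia, astrocytes and endothelium release cytokines that act through NF-kappa B and STAT factors, leukocytes adhere to the vessel wall and enter, and astrocytes turn reactive. Oxidative and protein stress switch on NRF2 targets and heat shock chaperones, and matrix, collagen and vessel genes follow during repair. In a whole-hemisphere library these programs are read together with the loss of neuronal transcripts.

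Most gene lists of these injury programs had a median below 0 for LJP against Vehicle mice, and most neuronal lists and zinc finger genes had one above 0, but the list levels of LJP and Vehicle mice overlapped in most lists, many medians shrank without Vehicle mice 1 and 2, and few single genes passed the test. At an adjusted p below 0.05 (edgeR quasi-likelihood test, Benjamini-Hochberg over all genes tested), 4 genes fell under LJP, which is 0.0228% of the genes tested, and 0 rose (0%). The 4 were Scgb1a1, Csf3, Sftpa1 and Sftpb. At an unadjusted p below 0.05 there were 5212 genes, and the smallest adjusted p after the 4 was 0.0678, shared by 640 genes. Below an adjusted p of 0.07 lay 990 genes, 761 of them lower and 229 higher under LJP. The number called hinged on single mice: without Vehicle mouse 3 edgeR called 2345 genes lower and 1512 higher, without Vehicle mouse 4 it called 1496 and 599, and without any other single mouse between 3 and 5. Without Vehicle mice 1 and 2 together it called 8, all lower. DESeq2 called 1640 genes lower (9.36% of 17528 with an adjusted p) and 667 higher (3.81%). The study's own thresholds, which it used with DESeq2, were looser, a log2 fold change beyond 0.58 in either direction and p below 0.01 before adjustment. By these, 1035 genes were lower (5.89%) and 188 higher (1.07%) in edgeR, and 1395 and 314 in DESeq2. The edgeR sets are the ones described below.

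Csf3 encodes granulocyte colony-stimulating factor, a cytokine that mobilizes neutrophils (Entrez Gene 12985, chromosome 11 from 98700183 to 98703631 of GRCm38, plus strand). It was counted at 2.41, 4.77, 3.98 and 2.53 CPM in Vehicle mice 1 to 4, at 0, 0.0511, 0.0544 and 0 in LJP mice 1 to 4 and at 0 to 0.109 in Sham mice. Every Vehicle mouse lay far above every LJP and Sham mouse. The 285 counts in Vehicle against 2 in LJP gave a 135-fold lower level (exact counting interval 36.9 to 1117, counting error only). The fitted log2 fold change was -6.74 ± 0.63 (SE; edgeR adjusted p = 0.000929), and it stayed between -7.21 and -6.34 when any of the 8 mice was left out. It was -6.66 without Vehicle mice 1 and 2, so this gene did not rest on the libraries that stood apart. The library kit did not mark strand, and Gm38985, a lncRNA gene on the other strand, overlaps the 5' part of Csf3, so reads of the shared stretch cannot be told apart by strand. Gm38985 itself held 4 counts in Vehicle mouse 1 and 0 in every other mouse.

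The other 3 calls were transcripts of airway and lung epithelium. Scgb1a1 encodes the secretoglobin of airway club cells (Entrez Gene 22287, chromosome 19 from 9083642 to 9087956 of GRCm38, minus strand), Sftpa1 a surfactant-bound collectin (Entrez Gene 20387, chromosome 14 from 41131788 to 41136373 of GRCm38, plus strand), and Sftpb a surfactant protein (Entrez Gene 20388, chromosome 6 from 72304610 to 72314373 of GRCm38, plus strand). Scgb1a1 lay at 3.81, 5.28, 4.25 and 5.66 CPM in Vehicle mice 1 to 4 and at 5.07 to 6.06 in Sham mice, while no read was counted in any LJP mouse. Against the floor of 3 counts per library, it was at least 30.7-fold lower under LJP, and Sftpa1, at 0.953, 1.93, 1.56 and 1.13 CPM in Vehicle mice and 0 in LJP mice, was at least 8.998-fold lower. Sftpb lay at 0.953, 0.945, 0.538 and 0.593 CPM in Vehicle mice, and only LJP mouse 1 held counts of it (2). Its ratio was 30.2 (exact counting interval 8.04 to 255). Unlike Csf3, these 3 genes were counted in Sham mice as they were in Vehicle mice, and LJP and Vehicle mice did not overlap. They are known as markers of lung epithelium, not of brain cells. Where their reads in Vehicle and Sham libraries came from, and whether tissue or libraries were handled alike in the 3 groups, was not tested, so these calls are differences between the libraries. Of the 15 genes in the airway and lung list, 6 were at 0 in all LJP mice (Scgb1a1, Scgb3a2, Sftpa1, Sftpd, Lamp3 and Reg3g), and the summed level of the list was 37.8 to 72.6 CPM in Vehicle, 15.996 to 26.6 in LJP and 25.9 to 32.7 in Sham mice. Most of that sum in LJP mice was Foxj1, a factor of ciliated cells that ependyma also expresses (54.8, 42.5, 22.2 and 25.6 CPM in Vehicle, 17.8, 18.7, 21.2 and 12.99 in LJP and 10.8 to 19.3 in Sham mice; named after its values were seen). Without Foxj1 the sum was 15.7 to 25.8 CPM in Vehicle, 2.61 to 5.44 in LJP and 12.5 to 17.1 in Sham mice. The list's median log2 fold change over 9 tested genes was -2.02, and -2.12 without Vehicle mice 1 and 2. The Sftpb call was lost without Vehicle mouse 1, Vehicle mouse 2, LJP mouse 2, 3 or 4, or any Sham mouse (edgeR adjusted p between 0.0538 and 0.162). It was also lost without Vehicle mice 1 and 2 together (0.0941). The Scgb1a1 and Sftpa1 calls held in each of these fits. In edgeR with the 8 mice alone and with a replicate block over all mice, only the Scgb1a1 and Csf3 calls held (Sftpa1 had adjusted p of 0.159 and 0.0668), and with the replicate block and the 8 mice alone none of the 4 did (adjusted p of 0.223 for Csf3 and 0.359 for the others).

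The wider pattern leaned on single mice in both directions. Of the 1035 genes lower at the study's thresholds, 936 (90.4%) had Vehicle mice 1 and 2 as the highest pair of the 8 mice, beside 137 (72.9%) of the 188 higher genes with that pair the lowest, and 422 (40.8%) of the lower genes showed no overlap between the groups. Over all genes tested, 1037 (5.91%) were lower in every LJP mouse than in every Vehicle mouse, and 1013 (5.77%) were higher in every LJP mouse. The numbers of non-overlapping genes in the 2 directions were thus nearly equal, while the genes past the study's thresholds were mostly lower ones. Among LJP mice, mouse 3 was the highest in 782 (75.6%) of the 1035 lower genes.

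Of the lower genes, 1015 and 1018 kept the study's thresholds without Vehicle mouse 3 or 4, but 538 without Vehicle mouse 2, 533 without LJP mouse 4 and 548 without LJP mouse 2. A core of 430 lower genes (2.45% of all genes tested) and 40 higher genes (0.228%) passed with all mice and in each of the 8 single omissions. Without Vehicle mice 1 and 2 together, 1033 of the 1035 lower genes kept their direction and 166 kept the thresholds, and their median log2 fold change went from -1.22 to -0.48. Of the 188 higher genes, 158 (84.0%) showed no overlap, all 188 kept their direction and 30 kept the thresholds, with a median going from 0.88 to 0.56. With all mice, 1029 of the 1035 lower genes were higher in Vehicle than in Sham mice and 186 of the 188 higher genes were lower in Vehicle than in Sham mice, on mean log2 CPM.

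**Figure D1:**
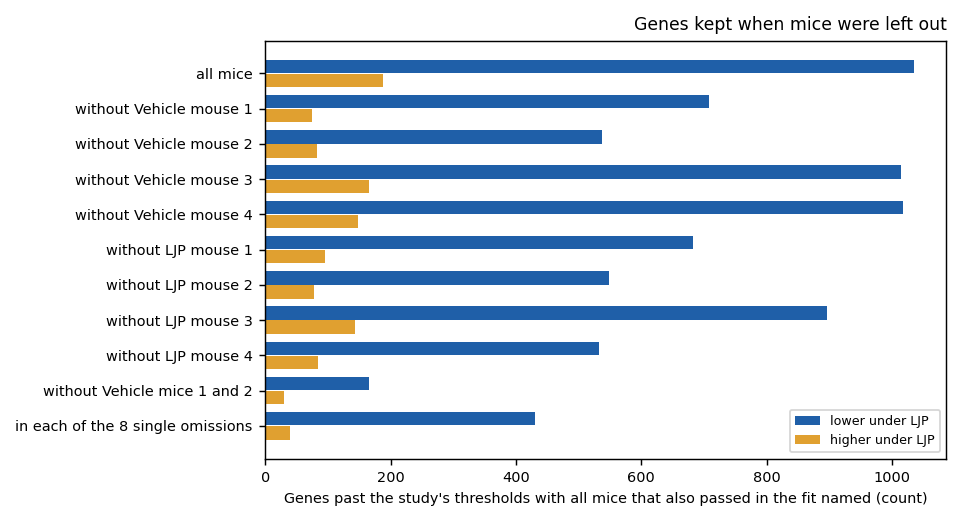
Number of genes past the study's thresholds with all mice (x axis, count; blue bars lower under LJP, yellow bars higher) that also passed in the fit named on the y axis. Of 1035 lower genes, 1018 passed without Vehicle mouse 4 but 538 without Vehicle mouse 2, and 430 passed in every single omission.

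Gene lists by function were compared next. For each list a level per mouse was taken as the mean, over its tested genes, of log2 CPM minus the Sham mean. Of 56 function lists, 45 had a median log2 fold change below 0 and 11 above 0, against a median of -0.0017 over all genes tested, and in 12 the levels of LJP and Vehicle mice did not overlap. A median below -0.3 was found for 32 of the lists with all mice, and 14 of these stayed below -0.3 without Vehicle mice 1 and 2. Leaving out Vehicle mouse 2 moved the median most in 39 of the 56. LJP mouse 3 was the highest LJP mouse in 36 of the 45 lists with a median below 0, as the plot of list levels shows. Apart from the 4 genes above, the members named from here on missed the adjusted threshold in edgeR, many of them with the shared edgeR adjusted p of 0.0678. DESeq2 called 173 of the 220 genes that the naming rule gave (2307 of 17528 genes in all), and edgeR without Vehicle mouse 3 called 181 (3857 genes in all). The rule picked many of the 220 for a small p in these same counts. A high number of calls among them was therefore built in and lends the members no support. Log2 fold changes of members are therefore given as edgeR values with their SE and not as calls. Counts of list members are read against the shares of all genes tested: on the lower side 5.91% without overlap, 5.89% past the study's thresholds and 2.45% past them in every single omission, and on the higher side 5.77%, 1.07% and 0.228%.

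**Figure D2:**
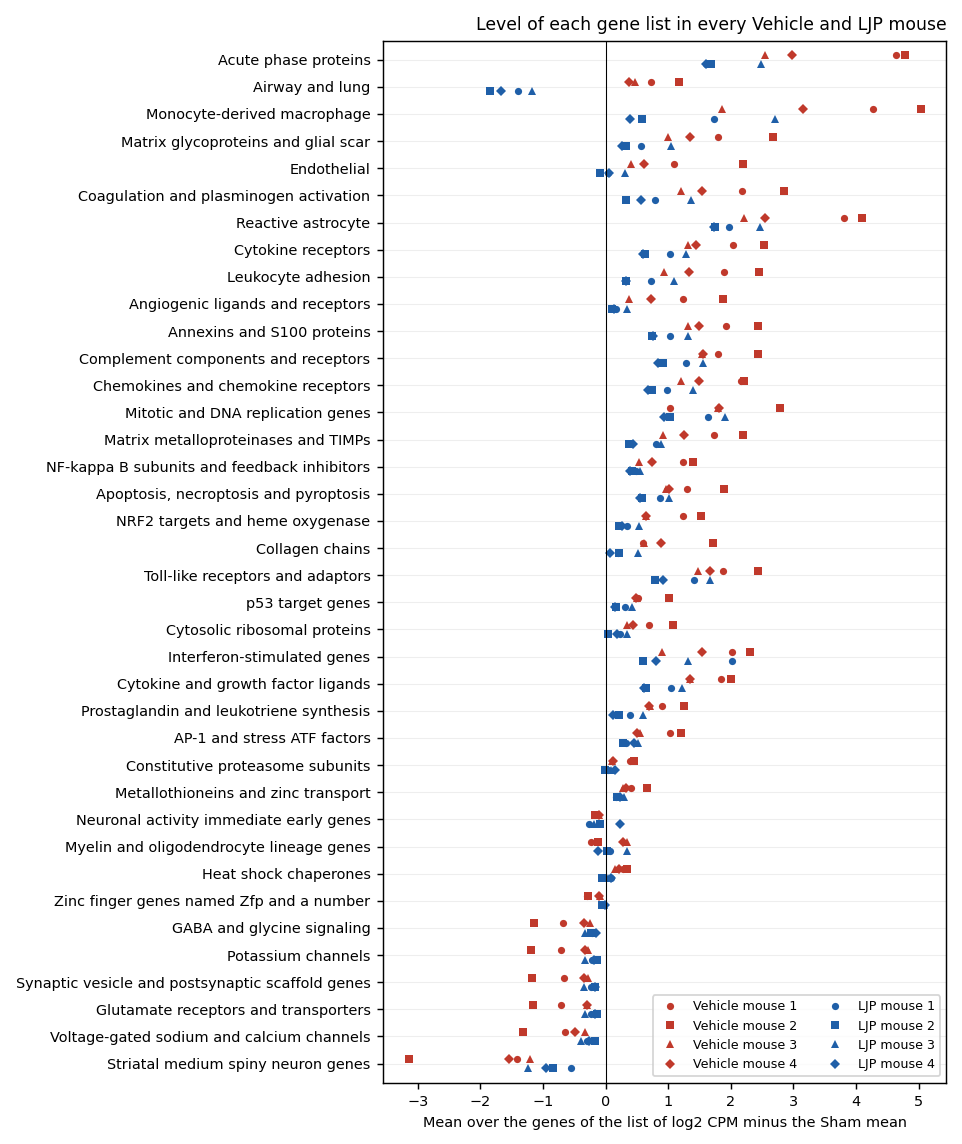
Level of each gene list (y axis) in every Vehicle (red) and LJP (blue) mouse, as the mean over its genes of log2 CPM minus the Sham mean (x axis, 0 is the Sham mean). Acute phase genes lay between 2.54 and 4.78 in Vehicle mice and between 1.60 and 2.48 in LJP mice, and striatal neuron genes between -3.14 and -1.21 and between -1.24 and -0.56.

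Acute phase proteins, which injured tissue and liver secrete under IL-6 type cytokines, had a median log2 fold change of -2.55 over 15 genes, the lowest of the 56 function lists. Their levels were 4.64, 4.78, 2.54 and 2.97 in Vehicle mice 1 to 4 and 1.60, 1.69, 2.48 and 1.61 in LJP mice 1 to 4, without overlap. Of the 15, 4 showed no overlap between the groups (26.7%, beside 5.91% of all genes; Saa3, Hp and, named after their values were seen, Lcn2 and Itih4), 11 passed the study's thresholds on the lower side (73.3%, beside 5.89%) and 9 did so in every single omission, as did 2.45% of all genes. Saa3, a serum amyloid made by inflamed tissue, was measured at 53.5, 12.5, 4.79 and 2.64 CPM in Vehicle mice and at 0.136, 0.665, 0.816 and 0.557 in LJP mice. The lowest Vehicle mouse was above the highest LJP mouse, although Vehicle mouse 1 alone held most of the signal (log2 fold change -5.09 ± 0.93, -3.62 without that mouse). Socs3 is in this list as a STAT3-induced brake on cytokine receptors and is not a secreted protein. It lay at 174, 246, 29.3 and 53.8 CPM in Vehicle and 19.3, 16.4, 32.4 and 13.9 in LJP mice, where LJP mouse 3 exceeded Vehicle mouse 3 (log2 fold change -2.62 ± 0.54). Hp, the hemoglobin-binding haptoglobin, had 26.4, 15.7, 1.02 and 2.69 and 0.818, 0.409, 0.870 and 0.167 CPM, without overlap, and the most abundant member, the protease inhibitor Serpina3n, 774, 668, 338 and 264 and 167, 153, 305 and 143 CPM. Serpina3n in LJP mouse 3 reached the range of the Vehicle group, and Sham mice held 7.85 to 11.01 CPM. The list's median was -0.65 without Vehicle mice 1 and 2.

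Cytokine receptors had a median of -1.002 over 34 genes, 33 of them lower under LJP. Levels were 2.04, 2.52, 1.32 and 1.44 in Vehicle mice and 1.03, 0.62, 1.29 and 0.59 in LJP mice, so the groups were separated by a narrow gap between Vehicle mouse 3 and LJP mouse 3. Of these receptors 8 showed no overlap (23.5%, beside 5.91% of all genes), 19 passed the study's thresholds on the lower side (55.9%, beside 5.89%) and 11 did so in every single omission, beside 2.45% of all genes. Ltbr, the lymphotoxin beta receptor that feeds noncanonical NF-kappa B, was at 54.5, 75.9, 24.1 and 28.0 CPM in Vehicle and 17.6, 14.2, 19.96 and 11.4 in LJP mice, without overlap (-1.53 ± 0.32). Eda2r, a TNF family receptor that p53 induces, showed the same order at low level, with 1.997, 3.87, 2.21 and 1.24 CPM against 0.545, 0.307, 0.979 and 0.223. Il4ra, the receptor chain for IL-4 and IL-13, reached 143, 244, 27.8 and 43.8 CPM against 18.6, 14.2, 35.5 and 12.4, and LJP mouse 3 lay above Vehicle mouse 3. Il6st, the shared gp130 chain, was at 142, 214, 109 and 113 CPM against 100.4, 78.1, 107 and 78.4 CPM, all LJP mice below all Vehicle mice (-0.67 ± 0.19). Csf1r, the receptor that keeps microglia alive, overlapped, at 158, 271, 257 and 269 and 259.9, 163, 252 and 163 CPM. Without Vehicle mice 1 and 2 the list median was -0.37, and over single omissions it lay between -1.20 and -0.70.

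Among 21 tested cytokine and growth factor ligands the median was -0.38 (-0.68 without LJP mouse 3 and -0.16 without Vehicle mice 1 and 2), and 5 passed the study's thresholds, Csf3 among them. Il11, an IL-6 family cytokine, lay at 37.7, 13.6, 1.18 and 2.37 CPM in Vehicle and 0.772, 0.307, 1.14 and 0.334 in LJP mice, with Vehicle mice 1 and 2 far above Vehicle mouse 3 (-4.41 ± 0.95, -1.47 without Vehicle mice 1 and 2). Tnfsf9, a T cell costimulator, was lower in every LJP mouse (3.49, 3.14, 1.56 and 1.62 against 1.14, 0.971, 1.03 and 0.948 CPM). Csf1 had 79.1, 86.4, 48.6 and 49.95 CPM in Vehicle and 42.4, 35.8, 54.1 and 32.2 in LJP mice, and Spp1, the most abundant ligand, 325, 1888, 397 and 352 and 212, 56.3, 644 and 69.2 CPM. In both of these, LJP mouse 3 overlapped with the Vehicle group. Il1b, Il6 and Tnf had too few counts for the edgeR fit. Il1b held 171 counts in Vehicle and 9 in LJP mice, 18.0-fold lower (exact counting interval 9.24 to 39.9), but 96 and 58 of the 171 came from Vehicle mice 1 and 2. Il6 held 72 and 2 counts, 52 of them in Vehicle mouse 1, and Tnf 77 and 19 counts, spread over all Vehicle mice. An exact two-sided permutation test on log2(CPM + 0.5), whose smallest possible p with 4 against 4 mice is 0.0286, gave 0.0286 for Il1b, 0.0571 for Il6 and 0.0286 for Tnf.

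Chemokines and their receptors had a median of -0.67 (-0.31 without Vehicle mice 1 and 2) over 28 genes, but 1 gene alone, Cxcl12 (named after its values were seen), showed no overlap, a share of 3.57% beside 5.91% of all genes. Of the 28, 8 passed the study's thresholds on the lower side (28.6%, beside 5.89%) and 4 did so in every single omission. The scavenging receptor Ackr3 lay at 26.8, 37.9, 8.13 and 12.6 CPM in Vehicle and 5.86, 5.52, 6.53 and 8.64 in LJP mice, where LJP mouse 4 passed Vehicle mouse 3. Ccl6, a myeloid chemokine, lay at 31.1, 33.5, 3.88 and 9.43 against 3.54, 1.53, 4.68 and 2.56 CPM, and Ccr1, which recruits monocytes and neutrophils, at 19.8, 14.4, 1.08 and 1.67 against 0.0454, 0.971, 1.14 and 0.279 CPM. For both, LJP mouse 3 exceeded Vehicle mouse 3. The neuronal chemokine Cx3cl1 was on the other side (342, 234, 641 and 642 in Vehicle, 720.4, 666, 573 and 721 CPM in LJP mice), with overlap. Toll-like receptors and their adaptors had a median of -0.52 (-0.30 without Vehicle mouse 2 and -0.30 without Vehicle mice 1 and 2) over 28 genes, 5 of which passed the study's thresholds in every single omission. Irak3, a brake in this pathway, lay at 8.62, 9.93, 1.99 and 3.18 against 2.04, 1.18, 2.28 and 1.17 CPM, and Myd88, the common adaptor, at 26.5, 32.7, 10.3 and 12.2 against 9.72, 7.36, 10.6 and 6.97 CPM, both with LJP mouse 3 just above Vehicle mouse 3. Lbp, which presents lipopolysaccharide, separated the groups (22.2, 67.7, 10.4 and 17.6 against 4.18, 5.01, 9.90 and 3.40 CPM).

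NF-kappa B subunits and feedback inhibitors had a median of -0.59 over 25 genes, with 22 lower, and 5 (Rela, Relb, Tnfaip3, and, named after their values were seen, Nfkb2 and Tnip1; 20%) lower in every LJP mouse than in every Vehicle mouse. Rela, the main activating subunit, lay at 76.7, 86.1, 37.5 and 42.1 CPM in Vehicle and 35.7, 27.9, 35.1 and 29.1 in LJP mice. Relb, of the noncanonical branch, had 16.3, 21.2, 9.58 and 10.1 against 7.27, 8.54, 8.38 and 6.74 CPM, and Tnfaip3 (A20), which the pathway induces to shut itself off, 15.6, 12.5, 8.99 and 9.11 against 7.36, 6.75, 6.74 and 7.69 CPM. In these 3 genes the groups did not overlap, but Vehicle mice 3 and 4 were close to the LJP mice, and 2 of the 10 members past the study's thresholds passed in every single omission. The deubiquitinase Cyld was higher in every LJP mouse (119.5, 66.0, 113 and 117 against 155, 141, 129 and 143 CPM; 0.45 ± 0.16). The list median was -0.19 without Vehicle mice 1 and 2. Stress-activated AP-1 and ATF factors had a median of -0.34 (-0.21 without Vehicle mouse 2 and -0.11 without Vehicle mice 1 and 2). Jun lay at 165, 156, 103 and 93.4 CPM in Vehicle mice and 82.3, 70.2, 92.4 and 73.5 in LJP mice, without overlap, and Cebpd, a driver of acute phase genes, at 154, 159, 30.6 and 48.2 and 21.6, 25.6, 41.7 and 21.9 CPM, with overlap.

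Promoter sequences are shown for 4 genes that stand for the lists above and for the NRF2 list, each with a match to the factor it is known for. The genes were chosen after the matches were seen. Sequences are RefSeq promoters of GRCm38.p6, 250 bases before to 50 after a transcript start, 5' to 3' on the gene's strand, with capitals marking the match. Tnfaip3 (chr10:19015361-19015660, minus strand) has NF-kappa B matches starting 125 and 12 bases before the start. Socs3 (chr11:117969317-117969616, minus strand) has a STAT match, TTCNNNGAA, at 154 bases before the start. Saa3 (chr7:46715627-46715926, minus strand) has a C/EBP match, TTGCNNAA, at 99 bases before, and Gclm (chr3:122245307-122245606, plus strand) an NRF2 match, TGACNNNGC, at 134 bases before. The start used is the outermost annotated start of Tnfaip3, but lies 3939 bases inside the annotated gene for Saa3, 970 for Socs3 and 70 for Gclm, so the windows of these 3 genes belong to inner transcript starts.
Tnfaip3: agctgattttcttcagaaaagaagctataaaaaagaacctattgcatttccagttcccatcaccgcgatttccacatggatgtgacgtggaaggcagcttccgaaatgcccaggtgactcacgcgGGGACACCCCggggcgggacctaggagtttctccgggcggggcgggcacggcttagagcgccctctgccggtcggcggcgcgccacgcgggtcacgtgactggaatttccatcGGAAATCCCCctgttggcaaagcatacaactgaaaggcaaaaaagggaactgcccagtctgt
Socs3: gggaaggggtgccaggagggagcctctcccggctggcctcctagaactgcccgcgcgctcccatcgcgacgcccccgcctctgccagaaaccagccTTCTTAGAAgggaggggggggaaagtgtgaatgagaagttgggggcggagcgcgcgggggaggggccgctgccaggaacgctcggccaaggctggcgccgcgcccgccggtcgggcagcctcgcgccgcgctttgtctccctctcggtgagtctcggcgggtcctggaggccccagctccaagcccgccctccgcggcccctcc
Saa3: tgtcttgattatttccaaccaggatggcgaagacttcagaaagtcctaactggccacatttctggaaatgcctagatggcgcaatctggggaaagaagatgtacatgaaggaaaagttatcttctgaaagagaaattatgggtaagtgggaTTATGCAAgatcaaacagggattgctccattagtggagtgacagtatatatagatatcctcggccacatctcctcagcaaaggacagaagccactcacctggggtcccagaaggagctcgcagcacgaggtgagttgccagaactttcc
Gclm: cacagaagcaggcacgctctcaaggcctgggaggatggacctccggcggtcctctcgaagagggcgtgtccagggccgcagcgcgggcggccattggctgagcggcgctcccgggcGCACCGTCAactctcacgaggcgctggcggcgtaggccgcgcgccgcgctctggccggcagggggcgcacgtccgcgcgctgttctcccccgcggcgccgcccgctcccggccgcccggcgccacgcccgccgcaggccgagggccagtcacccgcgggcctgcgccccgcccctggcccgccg
Both strands of each 300-base window were searched. NF-kappa B matches were found in 8.46% of all 32851 windows, in 12.3% of the 13710 tested genes with a window, in 16.5% of 795 genes lower at the study's thresholds and in 10.3% of 136 higher ones. The AP-1 letters TGANTCA were found in 7.81%, 6.51%, 10.4% and 5.15% in the same order, the STAT letters in 8.30%, 8.17%, 8.93% and 8.82%, the C/EBP letters in 10.8%, 10.3%, 11.4% and 14.7%, and the NRF2 letters, which can overlap with AP-1 matches, in 12.4%, 16.2%, 17.2% and 11.8%. The cyclic AMP response element TGACGTCA was found in 3.13% of tested genes, 1.64% of lower genes and 0% of higher ones. These are shares of letter matches and were not tested.

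**Figure D3:**
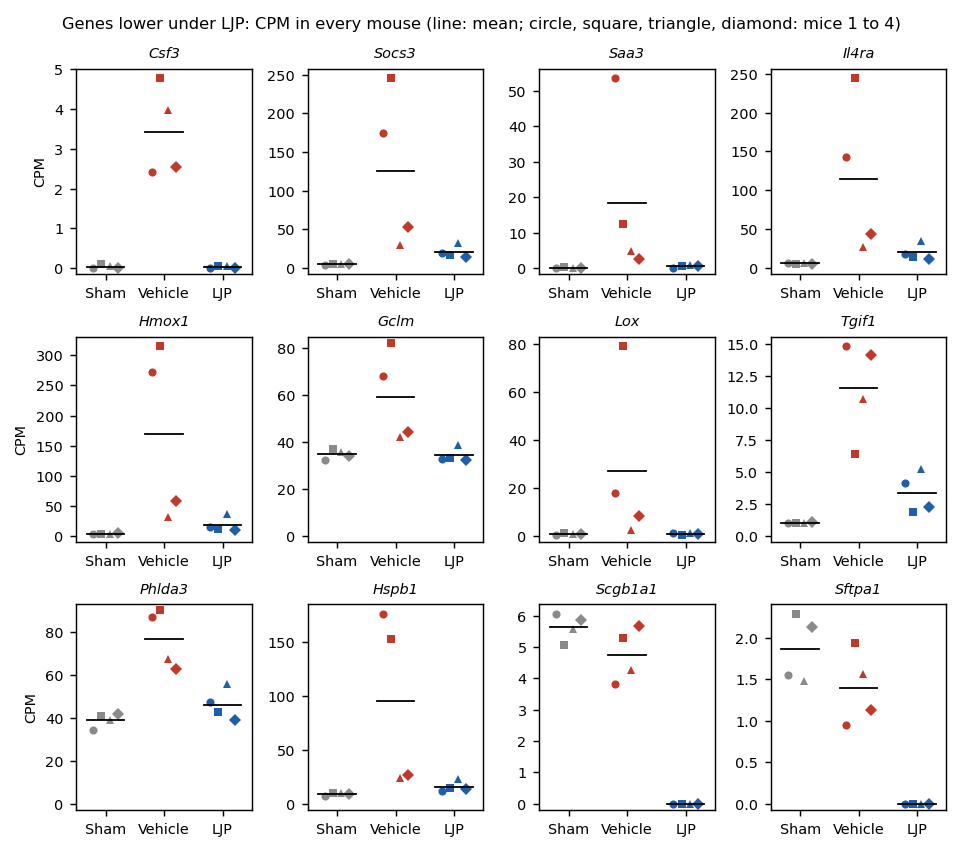
CPM (y axes, linear, from 0) of 12 genes lower under LJP in Sham, Vehicle and LJP mice (x axes), with 1 symbol per mouse and a line at the group mean. Csf3, Scgb1a1 and Sftpa1 separate the groups in all 4 Vehicle mice, whereas Socs3, Il4ra, Hmox1 and Lox are raised mainly in Vehicle mice 1 and 2 (Lox 18.0, 79.0, 2.42 and 8.30 CPM).

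NRF2 targets are antioxidant, glutathione and heme-degrading genes, and 12 of 29 were lower in every LJP mouse than in every Vehicle mouse (41.4%, beside 5.91% of all genes tested). Their median was -0.57, with levels of 1.24, 1.52, 0.64 and 0.64 in Vehicle and 0.34, 0.22, 0.54 and 0.26 in LJP mice, without overlap. Hmox1, heme oxygenase, lay at 273, 315, 32.1 and 58.0 CPM in Vehicle and 15.7, 11.1, 36.0 and 9.92 in LJP mice, where LJP mouse 3 passed Vehicle mouse 3. Gclm, the modifier subunit of glutathione synthesis whose promoter is printed above, showed no overlap (68.0, 82.2, 42.1 and 44.0 against 32.8, 33.0, 38.8 and 32.3 CPM; -0.79 ± 0.18), and LJP mice 1, 2 and 4 lay near the lowest value of the Sham range of 32.4 to 37.2 CPM. Osgin1 lay at 8.30, 8.85, 2.58 and 1.40 against 1.41, 0.920, 1.25 and 0.892 CPM, with LJP mouse 1 just above Vehicle mouse 4. The ferritin chains, which store iron, were the most abundant members. Fth1 had 3436, 4842, 2189 and 2339 CPM in Vehicle and 1668, 1722, 2120.4 and 1852 in LJP mice, without overlap, and Ftl1 986, 1863, 692 and 795 and 616, 413, 788 and 406 CPM, with overlap. The median of these targets was -0.22 without Vehicle mice 1 and 2.

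Heat shock chaperones split within the list. The median over 35 genes was 0.019 (-0.046 without Vehicle mice 1 and 2), but the levels did not overlap (0.28, 0.35, 0.15 and 0.21 in Vehicle, 0.083, -0.054, 0.044 and 0.084 in LJP mice), 6 members passed the study's thresholds on the lower side and all 6 did so in every single omission. Hspb7, a small chaperone, lay at 0.908, 2.66, 0.915 and 1.02 CPM in Vehicle and 0.273, 0.307, 0.435 and 0.334 in LJP mice, without overlap. The inducible Hspa1b and Hspa1a lay at 93.1, 162, 15.3 and 34.8 and 103, 178, 16.2 and 33.6 CPM in Vehicle mice and at 13.8, 12.99, 14.4 and 13.5 and 14.6, 12.1, 17.4 and 11.9 in LJP mice. These copies are nearly identical, so the split of reads between them is uncertain. All LJP values of Hspa1b were within the Sham range of 11.1 to 16.2 CPM, and Vehicle mouse 3 was too. The constitutive chaperones Hspa8 and Hsp90ab1 had log2 fold changes of 0.067 ± 0.10 and -0.15 ± 0.082. Metallothionein and zinc transporter genes had a median of -0.14 (-0.03 without Vehicle mouse 2 and 0.013 without Vehicle mice 1 and 2) over 18 genes. The zinc and copper binding Mt2 lay at 494, 747, 151 and 221 against 126, 120.2, 192 and 115 CPM, with LJP mouse 3 above Vehicle mouse 3, while Mt3, the brain form, was lower in every LJP mouse by a small amount (291, 282, 306 and 311 against 253, 255, 256 and 236 CPM; -0.25 ± 0.075).

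Cell death genes had a median of -0.57 (-0.29 without Vehicle mouse 2 and -0.17 without Vehicle mice 1 and 2) over 39 genes. Casp4, an inflammatory caspase, lay at 3.00, 4.64, 0.861 and 1.35 CPM in Vehicle and 0.409, 0.511, 0.707 and 0.334 in LJP mice, and the death receptor Tnfrsf10b at 4.17, 10.3, 3.01 and 2.37 and 1.27, 1.07, 1.90 and 0.780. Both separated the groups, while Ripk3, the necroptosis kinase, overlapped through LJP mouse 3 (4.49, 9.07, 1.67 and 3.39 against 1.23, 0.409, 2.01 and 0.948 CPM). Among 30 p53 targets the median was -0.48 (-0.25 without Vehicle mouse 2 and -0.15 without Vehicle mice 1 and 2), with 23 lower and 7 higher, and the levels did not overlap (0.52, 1.02, 0.51 and 0.49 in Vehicle, 0.30, 0.16, 0.43 and 0.15 in LJP mice). Without overlap were 5 genes on the lower side (16.7%) and 2 on the higher side (6.67%). Phlda3, which blocks AKT at the membrane (Entrez Gene 27280, chromosome 1 from 135766085 to 135769134 of GRCm38, plus strand), was lower in every LJP mouse (87.4, 90.3, 67.7 and 63.0 against 47.5, 42.6, 56.0 and 39.1 CPM; -0.74 ± 0.14) and changed little when any mouse was left out, with log2 fold changes between -0.84 and -0.65. Rrm2b, a ribonucleotide reductase subunit, and Plk2 were higher in every LJP mouse (0.35 ± 0.089 and 0.28 ± 0.088).

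Complement components and receptors were lower in all 25 tested genes, with a median of -0.68 (-0.33 without Vehicle mouse 2 and -0.31 without Vehicle mice 1 and 2) and 6 without overlap (24%, beside 5.91% of all genes). C3, the central component, lay at 49.5, 39.1, 9.26 and 12.1 CPM in Vehicle and 3.13, 3.99, 8.92 and 3.57 in LJP mice, and the protease C1ra at 10.5, 17.4, 5.54 and 5.44 and 3.68, 3.99, 4.68 and 3.62, both without overlap. C5ar1, the anaphylatoxin receptor on myeloid cells, lay at 37.3, 36.4, 15.4 and 12.9 and 8.22, 6.65, 15.3 and 6.24 CPM, where LJP mouse 3 passed Vehicle mouse 4. Clu, abundant in astrocytes, was lower in every LJP mouse by a small amount (-0.16 ± 0.069), and C1qa, made by microglia, overlapped (171, 348, 238 and 252 against 238, 118, 259 and 122 CPM). Prostaglandin and leukotriene synthesis genes had a median of -0.345 over 24 genes (-0.345 without Vehicle mice 1 and 2). Their levels did not overlap, at 0.69 to 1.25 in Vehicle and 0.12 to 0.60 in LJP mice. In this list, Alox5 lay at 15.1, 10.1, 4.36 and 2.64 CPM in Vehicle and 1.499, 1.74, 2.01 and 1.67 in LJP mice, without overlap (-2.22 ± 0.44). Ptges, which makes prostaglandin E2, had 59.7, 59.5, 5.01 and 13.9 against 4.496, 4.70, 6.53 and 3.73 CPM, with LJP mouse 3 above Vehicle mouse 3, and Ptgds, the abundant prostaglandin D synthase, had a log2 fold change of 0.18 ± 0.15.

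Leukocyte adhesion genes had a median of -0.99 (-0.63 without Vehicle mouse 2 and -0.40 without Vehicle mice 1 and 2) over 24 genes, 13 past the study's thresholds on the lower side (54.2%, beside 5.89% of all genes). Without overlap were 2, Selp and, named after its values were seen, Itgb3, a share of 8.33% near the 5.91% of all genes. Pecam1, at endothelial junctions, lay at 161, 339, 32.1 and 59.3 CPM in Vehicle and 22.0, 22.6, 33.7 and 22.0 in LJP mice, where LJP mouse 3 exceeded Vehicle mouse 3. Selp, the P-selectin of activated endothelium and platelets, lay at 15.9, 39.1, 2.26 and 5.23 against 0.0454, 0.205, 2.23 and 0 CPM, with LJP mouse 3 just under Vehicle mouse 3, and its log2 fold change went from -4.68 to -7.44 without LJP mouse 3. Coagulation and plasminogen activation genes had a median of -1.21 (-0.73 without Vehicle mouse 2 and -0.45 without Vehicle mice 1 and 2), of which Plaur, the urokinase receptor, lay at 48.9, 67.3, 6.67 and 11.2 against 4.996, 1.99, 7.12 and 2.01 CPM and Vwf at 289, 728, 162 and 162 against 85.0, 75.9, 168 and 72.7 CPM. In both, LJP mouse 3 overlapped with the Vehicle group. Angiogenic ligands and receptors separated by level (1.24, 1.88, 0.38 and 0.73 in Vehicle, 0.17, 0.11, 0.35 and 0.13 in LJP mice), with a median of -0.73 (-0.38 without Vehicle mouse 2 and -0.24 without Vehicle mice 1 and 2) and 12 of 35 genes past the study's thresholds in every single omission. Angpt2, which destabilizes vessels, ranged widely between Vehicle mice (68.0, 97.7, 2.74 and 13.3 CPM) and lay at 2.09, 1.33, 3.21 and 1.23 in LJP mice (-4.53 ± 0.86, -2.03 without Vehicle mice 1 and 2). Adm, the vasodilator adrenomedullin, was lower in every LJP mouse (23.4, 23.5, 2.91 and 5.50 against 2.18, 2.10, 2.72 and 2.17 CPM). LJP values of Adm lay within the Sham range of 0.933 to 2.83 CPM.

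Matrix glycoproteins and scar genes had a median of -1.51 (-0.84 without Vehicle mouse 2 and -0.49 without Vehicle mice 1 and 2) over 40 genes, of which 20 passed the study's thresholds in every single omission, the most of any function list described here. Levels were 1.79, 2.67, 1.001 and 1.35 in Vehicle and 0.57, 0.32, 1.04 and 0.26 in LJP mice, so LJP mouse 3 reached Vehicle mouse 3. Lox, which crosslinks collagen and elastin, lay at 18.0, 79.0, 2.42 and 8.30 CPM in Vehicle and 1.04, 0.256, 1.20 and 0.669 in LJP mice, without overlap (-5.08 ± 0.94, -3.59 without Vehicle mouse 2). Fbln5, an elastic fiber protein, had 29.5, 30.2, 7.75 and 8.62 against 4.04, 4.29, 4.68 and 4.24 CPM, and Hspg2, the basement membrane perlecan, 181, 409, 35.5 and 74.5 against 25.1, 18.9, 30.02 and 16.2 CPM, both without overlap. Sparcl1, made by astrocytes at synapses, was the exception among the abundant members (0.21 ± 0.12). Collagen chains leaned on Vehicle mouse 2. Col3a1, a fibrillar chain of fibroblasts, lay at 47.4, 489, 20.3 and 70.9 CPM in Vehicle mice, with most of it in that mouse, and at 8.63, 3.07, 16.3 and 3.79 in LJP mice, and its log2 fold change went from -4.30 to -2.54 without Vehicle mouse 2. The collagen list still separated the groups by level (0.60, 1.71, 0.61 and 0.88 in Vehicle, 0.19, 0.21, 0.51 and 0.063 in LJP mice), with a median of -0.56 and -0.40 without Vehicle mice 1 and 2. Matrix metalloproteinases and their inhibitors had a median of -0.62 (-0.28 without Vehicle mouse 2 and -0.29 without Vehicle mice 1 and 2) over 19 genes. Mmp19 separated the groups (18.2, 31.2, 5.97 and 9.86 against 5.54, 3.17, 5.60 and 3.12 CPM), whereas Mmp9, carried largely by neutrophils, overlapped (42.9, 35.9, 1.40 and 5.77 against 1.36, 2.35, 1.69 and 1.28 CPM). Timp1, a metalloproteinase inhibitor, overlapped as well (74.8, 103, 8.23 and 18.1 against 6.22, 8.69, 10.4 and 3.79 CPM).

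Annexins and S100 proteins, calcium-dependent membrane binders of injured and migrating cells, were lower in all 20 tested genes, with a median of -0.69 (-0.34 without Vehicle mice 1 and 2) and 6 without overlap (30%). Anxa1 lay at 12.6, 46.2, 3.28 and 6.57 CPM in Vehicle and 1.14, 1.23, 2.45 and 1.90 in LJP mice, and Ahnak at 277, 466, 147 and 152 and 111, 102, 139 and 98.7 CPM, both without overlap. S100a11 overlapped through LJP mouse 3 (55.2, 94.7, 17.0 and 24.9 against 11.7, 8.44, 18.4 and 9.53 CPM).

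Cytosolic ribosomal proteins were lower as a group by a small amount. Of 82 tested genes 81 were lower and 41 (50%, beside 5.91% of all genes) were lower in every LJP mouse than in every Vehicle mouse, with a median of -0.46 (-0.28 without Vehicle mouse 2 and -0.19 without Vehicle mice 1 and 2). DESeq2 called 53 of them lower (64.6%, beside 9.36% of all genes). Their levels were 0.69, 1.08, 0.34 and 0.43 in Vehicle and 0.24, 0.036, 0.35 and 0.18 in LJP mice, so LJP mouse 3 reached Vehicle mouse 3. Rpl36 lay at 119.8, 145, 91.8 and 101 CPM in Vehicle and 83.5, 72.2, 80.8 and 77.4 in LJP mice (-0.54 ± 0.12), and Rpl13 at 447, 584, 334 and 356 and 299, 265, 304 and 274 CPM (-0.59 ± 0.14). Of the 10 members past the study's thresholds, 0 passed in every single omission. Proteasome subunits showed a smaller shift (-0.19 over 34 genes, -0.049 without Vehicle mice 1 and 2, 6 or 17.6% without overlap), as in Psmd3 (226, 216, 158 and 156 against 148, 145, 138 and 143 CPM).

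Interferon-stimulated and mitotic genes depended on the mouse. Interferon-stimulated genes had levels of 2.01, 2.31, 0.90 and 1.55 in Vehicle and 2.03, 0.60, 1.31 and 0.80 in LJP mice, so LJP mouse 1 was as high as Vehicle mouse 1, and the median of -0.39 over 45 genes was -0.85 without LJP mouse 1, the mouse that moved it most. It was 0.025 without Vehicle mice 1 and 2. Ifitm2, an antiviral membrane protein, was nevertheless lower in every LJP mouse (51.4, 99.4, 14.9 and 19.2 against 10.9, 6.85, 14.3 and 7.69 CPM). Mitotic and DNA replication genes were lower in 51 of 55, at a median of -0.63 (-0.39 without Vehicle mice 1 and 2), but the 3 without overlap on the lower side (Cdt1 and, named after their values were seen, Mcm7 and E2f1) were 5.45%, near the 5.91% of all genes, and the median was -0.14 without Vehicle mouse 2. Cdt1 licenses replication origins (13.3, 26.9, 9.20 and 10.1 against 6.22, 4.19, 9.08 and 4.18 CPM).

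**Figure D4:**
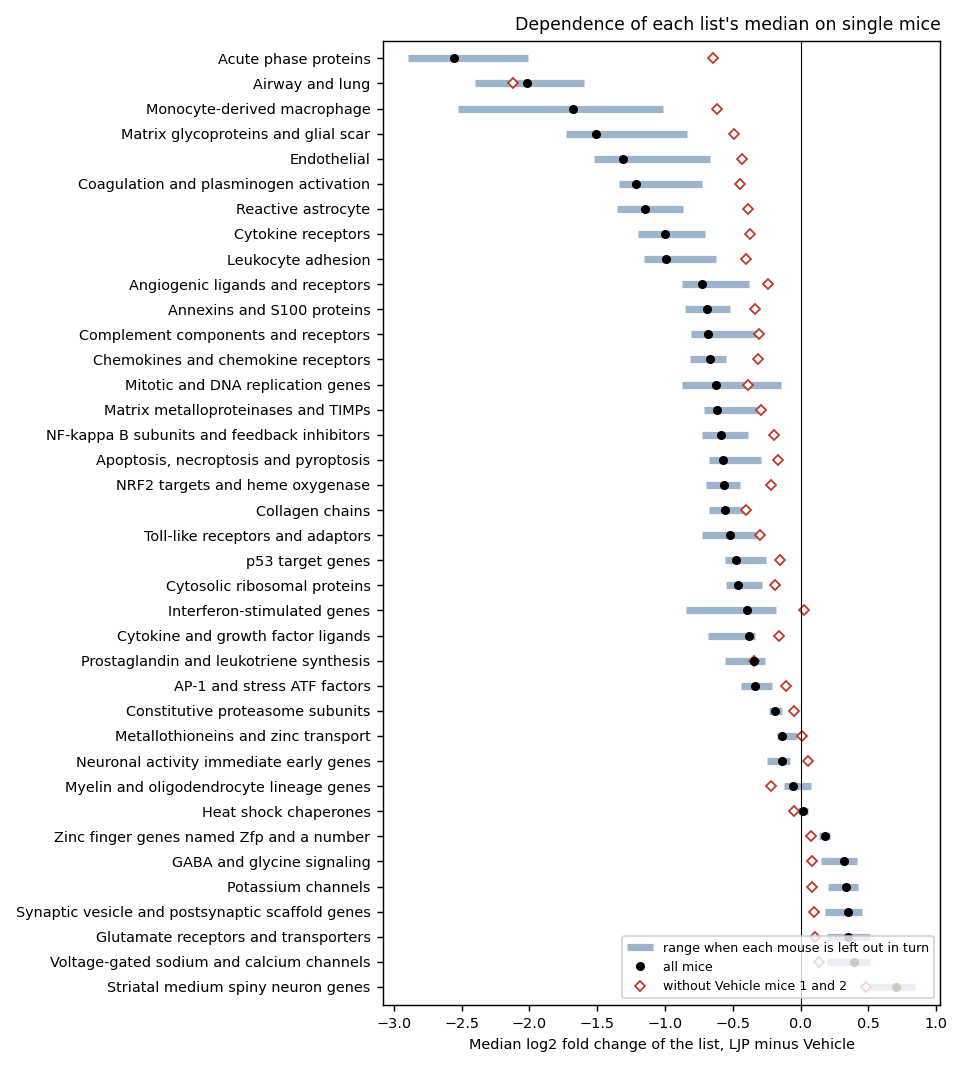
Median log2 fold change (LJP minus Vehicle, x axis) of each gene list (y axis) with all mice (black points), its range with 1 of the 8 mice omitted at a time (blue bars) and its value without Vehicle mice 1 and 2 (open diamonds). Acute phase genes went from -2.55 to -0.65 without those mice, whereas airway and lung genes went from -2.02 to -2.12.

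Of 21 cell type marker lists, 16 had a median below 0 and 5 above 0, and in 3 (endothelial, erythroid and airway) the levels of LJP and Vehicle mice did not overlap. In whole-hemisphere RNA, fewer cells of a type and less RNA per cell cannot be told apart. Endothelial markers had a median of -1.31 (-0.67 without Vehicle mouse 2 and -0.44 without Vehicle mice 1 and 2) over 17 genes and separated the groups by level (1.09, 2.20, 0.41 and 0.62 in Vehicle, 0.046, -0.081, 0.32 and 0.053 in LJP mice). Their summed level was 1208 to 3160.0 CPM in Vehicle, 980.1 to 1139.8 in LJP and 953 to 1011 in Sham mice. Cdh5, the endothelial cadherin, lay at 153, 351, 31.3 and 61.6 CPM in Vehicle and 23.6, 14.3, 28.8 and 16.4 in LJP mice, without overlap (-2.84 ± 0.58). The most abundant members, the glucose transporter Slc2a1 (-0.43 ± 0.21, but 0.064 without Vehicle mice 1 and 2) and Bsg (-0.10 ± 0.079), overlapped between the groups. These markers moved with the adhesion, coagulation, angiogenic and matrix lists, and their part in those results was not tested. Pecam1 is in both the endothelial and the adhesion list, so part of that shared movement is built in. Fibroblast and meningeal markers had a median of -0.71 over 17 genes (-0.53 without Vehicle mice 1 and 2), with overlapping levels of 0.11, 2.30, 0.83 and 1.05 in Vehicle and 0.16, -0.15, 0.68 and -0.015 in LJP mice and a summed level of 789.9 to 2635 CPM in Vehicle, 818 to 992 in LJP and 799.8 to 831 in Sham mice. They were highest in Vehicle mouse 2, as the collagen and matrix lists were, and their part in those results was not tested. Col3a1 is in both the fibroblast and the collagen list, so part of this likeness is built in.

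Reactive astrocyte markers had a median of -1.15 (-0.39 without Vehicle mice 1 and 2) over 33 genes, 21 past the study's thresholds (63.6%) and 15 in every single omission. Their summed level was 3304 to 7892 CPM in Vehicle, 1993 to 3658 in LJP and 369.5 to 441 in Sham mice, and 0 of the 33 were at 0 in all LJP mice. Hspb1, a small heat shock protein, lay at 177, 153, 23.8 and 26.6 CPM in Vehicle and 12.0, 14.6, 23.1 and 13.6 in LJP mice, without overlap. Gfap, the astrocyte filament, overlapped (1456, 2853, 1769 and 2187 against 2112, 1236, 1909 and 1019 CPM), and so did Vim (919, 2198, 578 and 849 against 604, 409, 718 and 321 CPM).

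Monocyte-derived macrophage markers had a median of -1.68 (-2.53 without LJP mouse 3 and -0.62 without Vehicle mice 1 and 2) over 10 tested of 15 listed genes, and none of them separated the groups. Their summed level was 331 to 1808 CPM in Vehicle, 166 to 426 in LJP and 114 to 118 in Sham mice. Chil3 lay at 100.1, 84.3, 1.56 and 10.02 CPM in Vehicle and 0.409, 0.511, 2.23 and 0.390 in LJP mice. It was high in Vehicle mice 1 and 2, and in LJP mouse 3 it exceeded Vehicle mouse 3. The summed level of 19 neutrophil markers was 40.3 to 473 CPM in Vehicle, 29.6 to 39.4 in LJP and 10.6 to 13.1 in Sham mice. Elane was at 0 in all 8 Vehicle and LJP mice. Over the 4 neutrophil markers that could be tested the median was -1.94 (-0.53 without Vehicle mice 1 and 2). Their levels overlapped, with Vehicle mouse 3 at 1.65 and LJP mouse 3 at 1.69. Homeostatic microglia markers had a median of 0.027 (-0.24 without Vehicle mice 1 and 2). Macrophage and neutrophil markers were highest in the same Vehicle mice as the cytokine receptor, complement, adhesion and annexin lists, and their part in those results was not tested. Lymphocyte markers were counted at low levels: 4 of 17 T and NK cell markers could be tested, with levels of -0.44, -0.95, -0.32 and -0.68 in Vehicle and -0.34, -0.25, -0.15 and -0.29 in LJP mice, and 3 of 10 B cell markers, with 0.39, 1.41, 1.48 and 2.03 and 1.82, 0.25, 1.61 and 0.79. Both lists overlapped between the groups.

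Genes on the higher side were fewer and their groups overlapped less. Of the 188 higher genes at the study's thresholds 73 (38.8%) were lncRNA genes, beside 13.02% of all genes tested and 2.80% (29) of the lower genes. The 188 had a median level of 4.57 CPM over the 8 LJP and Vehicle mice, beside 18.3 CPM for all genes tested, and among the 1013 genes higher in every LJP mouse the share of lncRNA genes was 14.1%, near that of all genes. LOC115489152, an uncharacterized lncRNA, lay at 0.182, 0.129, 0.161 and 0.108 CPM in Vehicle (4, 3, 3 and 2 counts, near the floor of 3) and 0.4996, 0.409, 0.653 and 0.446 in LJP mice (11, 8, 12 and 8 counts), and Gm41069, another, at 0.408, 0.258, 0.484 and 0.269 and 0.999, 1.07, 0.761 and 1.23. Both were without overlap and had Sham values of 0.545 to 0.577 and 1.14 to 1.71 CPM, near or above the LJP mice. Lmo7, a LIM domain protein of cell junctions, lay at 57.9, 44.4, 75.7 and 67.6 CPM in Vehicle and 108, 109, 89.7 and 102 in LJP mice (0.74 ± 0.14). Eif4e3, a cap-binding protein, had 24.9, 24.5, 32.0 and 34.8 against 48.3, 49.5, 39.8 and 41.4 CPM (0.62 ± 0.12). In both genes, every LJP mouse was above every Vehicle mouse, and their LJP values were within or below the Sham range (108 to 136 and 48.4 to 54.0 CPM). Gm10603 and Tmem181b-ps, a pseudogene, were higher on average under LJP than in either other group. Gm10603, a lncRNA, lay at 1.04, 0.945, 1.13 and 0.808 CPM in Vehicle, 2.09, 2.66, 1.69 and 2.06 in LJP and 1.10, 1.04, 1.48 and 1.40 in Sham mice, and Tmem181b-ps at 66.8, 90.8, 111 and 97.0, 135, 166, 131 and 150.0 and 137, 108, 107 and 116 CPM. Pseudogene reads may be shared with the parent gene, so the Tmem181b-ps values are uncertain.

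Zinc finger genes named Zfp, many of them DNA-binding repressors of the KRAB type, were higher as a group by a small amount. Of 332 tested genes 241 were higher, with a median of 0.18, and 40 (12.0%, beside 5.77% of all genes) were higher in every LJP mouse. Levels were -0.30, -0.28, -0.085 and -0.11 in Vehicle and -0.022, -0.052, -0.03 and -0.01 in LJP mice, without overlap. Zfp583 lay at 2.63, 2.71, 3.34 and 2.86 CPM in Vehicle and 4.54, 5.73, 4.73 and 6.35 in LJP mice (0.89 ± 0.17), Zfp287 at 10.6, 11.5, 10.8 and 11.05 and 14.6, 16.1, 15.3 and 15.7 (0.49 ± 0.091), and Zfp280d at 12.98, 14.1, 18.1 and 18.1 and 23.6, 23.4, 22.9 and 25.8 (0.60 ± 0.12). Vehicle mice 1 and 2 did not stand apart in Zfp287, whose log2 fold change was 0.49 without them. The list median was 0.075 without those mice.

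**Figure D5:**
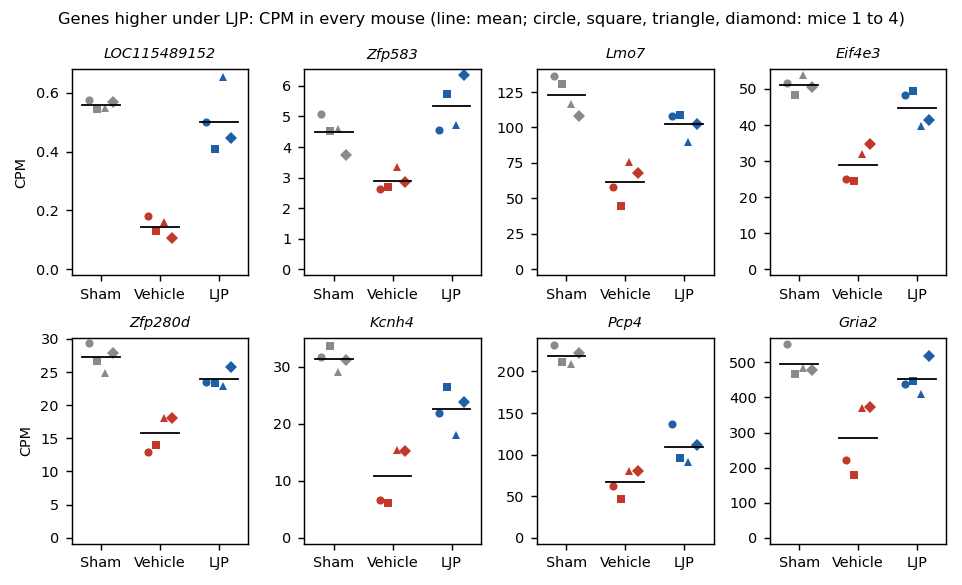
CPM (y axes, linear, from 0) of 8 genes higher under LJP in Sham, Vehicle and LJP mice (x axes), with 1 symbol per mouse and a line at the group mean. Every LJP mouse lay above every Vehicle mouse in each gene shown, as in Lmo7 with 44.4 to 75.7 CPM in Vehicle and 89.7 to 109 in LJP mice.

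Most neuronal lists had medians above 0. Neuropeptides and interneuron markers were mixed: 9 of 37 genes were lower, 4 passed the study's thresholds on the lower side and 1 on the higher, and the median of 0.23 was 0.044 without Vehicle mouse 2 and -0.06 without Vehicle mice 1 and 2. Genes of striatal medium spiny neurons, the projection neurons in the core of this occlusion, were higher in all 38 tested, with a median of 0.70. Their levels were -1.41, -3.14, -1.21 and -1.55 in Vehicle and -0.56, -0.83, -1.24 and -0.96 in LJP mice, so LJP mouse 3 lay just below Vehicle mouse 3, and all 8 mice lay below Sham. Of the 38, 11 showed no overlap (28.9%, beside 5.77% of all genes), 11 passed the study's thresholds (28.9%, beside 1.07%) and 1 did so in every single omission, as did 0.228% of all genes. Pcp4, a calmodulin regulator, lay at 62.8, 46.1, 80.0 and 79.9 CPM in Vehicle, 137, 95.5, 90.7 and 112 in LJP and 209 to 231 in Sham mice. Dgkb, a striatal lipid kinase, had 65.6, 46.6, 84.2 and 80.7 against 136, 97.6, 97.1 and 115 CPM, without overlap, and Ppp1r1b (DARPP-32), the dopamine signal integrator, overlapped (617, 141, 448 and 334 against 642, 585, 397 and 525 CPM). The list median was 0.48 without Vehicle mice 1 and 2.

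Potassium channels were higher in 56 of 57 genes (median 0.33), glutamate receptors and transporters in 37 of 38 (0.35), GABA and glycine genes in 27 of 30 (0.32), sodium and calcium channels in 24 of 26 (0.39) and synaptic genes in 52 of 54 (0.35). Without Vehicle mice 1 and 2 these medians were 0.083, 0.11, 0.081, 0.14 and 0.10. The levels of LJP and Vehicle mice overlapped in each of the 5 lists, with Vehicle mice 3 and 4 near the LJP mice. Kcnh4, a voltage-gated channel of forebrain neurons, lay at 6.58, 6.06, 15.4 and 15.2 CPM in Vehicle and 21.9, 26.4, 18.0 and 23.7 in LJP mice, without overlap (1.07 ± 0.27). Gria2, the subunit that makes AMPA receptors impermeable to calcium, had 221, 177, 369.9 and 372 against 438, 446, 410.4 and 518 CPM (0.67 ± 0.20), and Gabra4 39.4, 32.9, 50.1 and 49.5 against 65.4, 61.3, 55.0 and 69.2 CPM (0.55 ± 0.12). In these genes every LJP mouse was above every Vehicle mouse. Slc17a7, the glutamate transporter of cortical neurons, had a log2 fold change of 0.10 ± 0.11. The summed level of 18 neuron markers was 9567 to 13980.0 CPM in Vehicle, 13170.2 to 15457 in LJP and 14635 to 15856 in Sham mice, and its part in these lists was not tested.

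Immediate early genes had a median of -0.14 over 30 genes (0.054 without Vehicle mice 1 and 2), with 17 lower and 13 higher. Ier3 and Ier2, which injury and cytokines induce, were lower in every LJP mouse (47.6, 65.5, 15.3 and 14.4 against 9.49, 8.64, 13.9 and 8.47 CPM for Ier3; 30.1, 51.0, 14.05 and 16.5 against 9.86, 13.2, 12.5 and 11.4 for Ier2). Egr1 and Egr3, which neuronal firing induces, had log2 fold changes of 0.57 ± 0.23 and 0.79 ± 0.36, with overlap. Myelin genes had a median of -0.058 (-0.22 without Vehicle mice 1 and 2) over 35 genes. Mbp, the myelin basic protein, was lower in every LJP mouse (3709, 3469, 2829 and 2924 against 2286, 2559, 2673 and 2289.7 CPM; -0.40 ± 0.12), and all LJP values lay within the Sham range of 2229.7 to 2819 CPM.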

How the data were processed

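RNA of the ischemic hemisphere, or its sham counterpart, was sequenced from 12 mice (poly(A) selection, a kit without strand marking). The authors deposited 1 table of raw counts per gene, whole numbers without normalization. featureCounts, DESeq2 and the builds GRCm39 and mm10 are named in the submitters' processing notes without their roles. Positions in the table are those of RefSeq GRCm38.p6 for 39750 of 39756 genes, and the strand setting of the counting is not given in the sources used here. No column lacked a sample.

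Groups followed the labels. Counts were tested with the edgeR 4.0.16 quasi-likelihood test (R 4.3.3) over all 12 mice, which share 1 estimate of the spread, with TMM factors, filterByExpr and Benjamini-Hochberg adjustment over the 17558 genes kept. SE is that of the fitted log2 fold change. The study's thresholds were an absolute log2 fold change over 0.58 and an unadjusted p below 0.01. Genes under the count filter were compared by an exact permutation test. A count ratio carries an exact 95% binomial interval.

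Alternatives were RLE or library size scaling, no filter or at least 10 counts, DESeq2 1.42.0, limma 3.58.1 voom with quality weights, robust dispersion, the 8 mice alone, a replicate block, each mouse left out, and, added after the data were seen, both Vehicle mice 1 and 2 left out. The genes named were those past the adjusted threshold, the 10 lower and 10 higher genes of smallest p without overlap past the fold minimum, in each list described the 3 with the smallest p and the 2 most abundant, the 5 moved most by each mouse, and genes the study measured otherwise, with exceptions marked in the text. A few genes that this rule names are not reported here. The members and gene lists were chosen with earlier results of these data known. Totals of 17960353 to 22216315 counts set the precision.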

Additional observations from a re-analysis of the deposited data

Results flagged for a closer look

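In 23 of 592 groups of 4 mice (levels of gene lists and named genes, each within the Vehicle or the LJP group), 1 mouse lay far from the other 3, with a gap to the nearest of them past Dixon's 95% critical value for 4 samples as a share of the range. In unselected and independent groups, chance alone flags about 1 in 20, which is 29.6 of 592. Many of the groups here were chosen from the same data and share genes, so 29.6 is a rough guide only.

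LJP mouse 3 was the distant mouse in 11 of them. It was the highest LJP mouse in the levels of acute phase genes (gap 0.897 of the range), iron storage genes (0.897) and choroid plexus markers (0.924), and in Gclm (0.882), Pecam1 (0.928), Col4a2 (0.869), Adm (0.850) and Chil3 (0.859). It was the lowest in Mmp17 (0.919), Kcnd2 (0.850) and Baiap2 (0.8293). Except for the choroid plexus markers, where Vehicle mice themselves lay in a low and a high pair, the distance was toward the Vehicle values.

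Vehicle mouse 2 stood alone in 6: highest in the level of ADAM and ADAMTS proteases (0.840), in the level of p53 targets (0.935) and in Spp1 (0.886), Hspb7 (0.892) and Pdgfra (0.939), and lowest in Cyld (0.901). Vehicle mouse 1 was lowest in Csf1r (0.905), and Vehicle mouse 3 was highest in Mei4 (0.894). Among other LJP mice, mouse 2 was lowest in the level of mitochondrial ribosomal proteins (0.835) and in Slc2a1 (0.937), mouse 4 was lowest in Mt3 (0.850), and mouse 1 held all counts of Sftpb (gap of 1).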

How the results depend on the processing

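The 4 calls at an edgeR adjusted p below 0.05 came to 4 under RLE scaling, library size scaling, the filter of at least 10 counts and robust dispersion, and to 5 under limma voom with quality weights. They came to 593 without a filter (543 lower, 50 higher), to 2307 with DESeq2 (1640 lower, 667 higher), to 2 with the 8 mice alone (2 lower) and to 8 without Vehicle mice 1 and 2 (8 lower). Omitting 1 mouse gave 3 to 3857 calls, 3 to 2345 of them lower and 0 to 1512 higher. The 1035 lower genes at the study's thresholds became 386 with voom weights, 523 with the 8 mice alone, 197 without Vehicle mice 1 and 2, 1642 at p below 0.05 and 556 to 1614 with 1 mouse omitted. The 188 higher genes became 283 without a filter, 314 with DESeq2, 94 with voom weights, 62 with the 8 mice alone, 59 without Vehicle mice 1 and 2, 539 at p below 0.05, 577 without a minimum fold and 94 to 663 with 1 mouse omitted. The cause of these differences was not tested.

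Replicate numbers did not pair the mice: deviations of same-numbered LJP and Vehicle mice correlated at -0.060, -0.259, -0.322 and 0.114. With a replicate block the calls were 2 (2 lower, Scgb1a1 and Csf3), and the study's thresholds gave 642 lower and 149 higher genes. With the replicate block and the 8 mice alone there were 0 calls (0 lower), 88 lower and 38 higher genes, where edgeR without the block gave 2 and DESeq2 with all mice 2307.

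Of 220 named genes, 211 kept their direction in every fit. The 9 others, of which most have folds near 0, reversed in 20 of 5049 refitted values. With voom weights these were Cxcl14 -0.046, Traf3 -0.11, Hspa8 -0.040, Serpine2 -0.033, Slc17a7 -0.0078 and Slc2a1 0.025. Without Vehicle mice 1 and 2 they were Cxcl14 -0.078, Traf3 -0.12, Ptgds -0.030, Hspa8 -0.074, Serpine2 -0.058, Slc17a7 -0.022 and Slc2a1 0.064. Ptges3 gave 0.0021 without a filter. With 1 mouse omitted, Ptges3 lay between -0.033 and 0.043 and reached 0.014 without Vehicle mouse 2, Aif1 lay between -0.26 and 0.094 with 0.030 and 0.039 without Vehicle mouse 2 or LJP mouse 4, and Traf3 between -0.037 and 0.14. List medians changed sign under some alternative in 18 of 77 lists. At 0.155 CPM per empty library, differences of rarer transcripts were not detectable.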

Other observations

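Some of the lists not described above are given here, with members named after their values were seen. Epithelial membrane and transglutaminase injury genes had a median log2 fold change of -1.22 over 22 genes (-0.48 without Vehicle mice 1 and 2), with 12 past the study's thresholds on the lower side (54.5%, beside 5.89% of all genes) and 1 without overlap (4.55%, beside 5.91%). TGF-beta and activin genes had a median of -0.49 over 41 genes, 11 of which passed the study's thresholds on the lower side with all mice and in every single omission. Eng, the endothelial TGF-beta coreceptor, lay at 112, 198, 46.6 and 55.1 CPM in Vehicle mice 1 to 4 and 39.2, 31.3, 41.7 and 31.5 in LJP mice 1 to 4, and Id1, a target of BMP signaling, at 39.5, 61.8, 20.5 and 21.0 and 15.4, 13.2, 18.4 and 16.9 CPM, both without overlap. Fst, the follistatin that traps activin, was on the other side (1.18, 0.945, 1.83 and 1.51 against 2.82, 2.66, 1.96 and 2.95 CPM), also without overlap. The list median was -0.15 without Vehicle mice 1 and 2.

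Genes of phagocyte oxidase and Fc receptor signaling were lower in all 26 tested (median -0.65, -0.38 without Vehicle mice 1 and 2), and MHC class I presentation genes in all 21 (median -0.69), but 0 and 1 of them showed no overlap, and the MHC class I median was -0.12 without Vehicle mice 1 and 2. Unfolded protein and stress response genes had a median of -0.30 over 40 genes (-0.13 without those mice), and glucocorticoid-responsive genes -0.42 over 26, which was 0.12 without those mice. With all mice, nuclear genes of oxidative phosphorylation lay at 0.0013 over 74 genes and glycolysis and hypoxia genes at -0.017 over 40, near the median of all genes. Without Vehicle mice 1 and 2 these medians were -0.057 and -0.043.

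Erythroid genes had a median of -2.32 over 8 genes, which was -0.65 without Vehicle mice 1 and 2. The summed level of all 10 listed genes overlapped (196 to 262 CPM in Vehicle, 197 to 233 in LJP and 203 to 228 in Sham mice). Hbb-bs, an adult beta globin, lay at 39.6, 22.0, 4.41 and 5.66 CPM in Vehicle, 3.04, 2.045, 4.24 and 3.07 in LJP and 1.90 to 2.45 in Sham mice. Alas2, the erythroid enzyme of heme synthesis, was lower in every LJP mouse as well (6.72, 3.74, 1.02 and 1.51 against 0.545, 0.767, 0.653 and 0.725 CPM). Choroid plexus markers followed the mouse and not the group, with levels of -2.004, -2.34, 0.41 and 0.33 in Vehicle, -2.24, -2.24, 0.084 and -2.43 in LJP and -2.34, 0.80, 0.39 and 1.15 in Sham mice. Ependymal and ciliated cell markers had a median of -0.73 over 16 genes (-0.40 without Vehicle mice 1 and 2).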
